A study of Mus musculus with 2 samples.

Results

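Nuclear genes for the mitochondrial respiratory chain and the mitochondrial ribosome were examined for peaks of Pax7 chromatin immunoprecipitation in mouse muscle stem cells. The set was defined by gene symbol: protein-coding genes named Nduf, Cox4 to Cox8, Uqcr, Sdha to Sdhd, Atp5, Mrpl or Mrps. Earlier results of these data were known when it was chosen. It held 174 of 21774 protein-coding genes on assembled chromosomes of GRCm38, and 13 of the 2977 deposited peaks belonged to it. A peak belonged to a gene when its summit lay inside the gene, or when an end of the gene was the nearest protein-coding gene end within 50 kb.

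The study consisted of 1 library of DNA recovered with a GFP antibody (the ChIP library) and 1 library of input DNA made without antibody. Both came from untreated muscle stem cells isolated by flow cytometry from C57BL/6 mice with the genotype Pax7-YFP KI, a knock-in of yellow fluorescent protein at Pax7, so the ChIP and the input cells carried the same allele. The antibody recognises the fluorescent tag, and PAX7 is a transcription factor of these stem cells with a paired domain and a homeodomain. The age of the mice and the number pooled are not given in the sources used here, and ChIP from cells without the tag was not analysed here. After filtering, 10622111 ChIP tags and 20429667 input tags were left. With 1 library each there was no replicate spread and no test between libraries. The intervals below are exact Poisson 95% intervals of the ChIP count, which cover counting error only, and tags of amplified libraries are not independent molecules. Of the muscle stem cell markers, 6 of 10 genes had a peak, Pax7 among them. Endothelial markers had a peak at 3 of 4 genes, fibro-adipogenic markers at 1 of 4 and leukocyte markers at 0 of 4. By the rule above, 9.63% of all protein-coding genes had a peak, and 14% of those over 20 kb. A peak is not a measure of expression, so the marker counts do not show which cells the sort held.

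The respiratory chain passes electrons through complexes I to IV of the inner mitochondrial membrane and pumps protons, and complex V, the ATP synthase, uses the proton gradient to make ATP. The subunits come from nuclear genes, which are the ones described here, and from mitochondrial DNA, whose messages are translated by the mitochondrial ribosome, a particle built from nuclear-encoded proteins named Mrpl for the large and Mrps for the small subunit. Resting muscle stem cells contain few mitochondria and are known for low metabolic activity, which rises when they are activated. The promoters of these genes commonly hold sites for NRF1, ETS factors and YY1.

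The sequences below show where the summits lay, with 1 promoter for each class of complex or ribosomal subunit that had one to show. Each is the promoter of the strongest peak of its class among those whose summit fell within the 150 bases shown, which run from 120 bases before the RefSeq start site to the 30th base of the transcript, 5′ to 3′ on the gene's strand (RefSeq, GRCm38.p6). Capitals mark GTCAC on either strand (GTGAC when read on the other), the core letters of sites bound by the paired domain, the part of PAX7 that gives paired box proteins their name.
Ndufb8, chr19:44555413-44555562, minus strand: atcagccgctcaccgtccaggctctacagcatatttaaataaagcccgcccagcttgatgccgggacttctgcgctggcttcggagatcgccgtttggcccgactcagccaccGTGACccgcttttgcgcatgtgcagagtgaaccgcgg
Ndufaf3, chr9:108567407-108567556, minus strand: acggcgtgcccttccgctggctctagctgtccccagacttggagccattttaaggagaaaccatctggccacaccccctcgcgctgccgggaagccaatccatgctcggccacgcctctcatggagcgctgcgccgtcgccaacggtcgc
Uqcrfs1, chr13:30545287-30545436, minus strand: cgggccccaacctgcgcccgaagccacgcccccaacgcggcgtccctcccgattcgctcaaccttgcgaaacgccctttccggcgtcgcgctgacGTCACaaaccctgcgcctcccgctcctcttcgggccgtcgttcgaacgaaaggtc
Atp5g3, chr2:73911297-73911446, minus strand: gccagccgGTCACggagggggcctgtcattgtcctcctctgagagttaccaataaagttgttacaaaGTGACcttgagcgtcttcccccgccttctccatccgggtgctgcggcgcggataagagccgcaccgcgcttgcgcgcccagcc
Mrpl18, chr17:12916062-12916211, minus strand: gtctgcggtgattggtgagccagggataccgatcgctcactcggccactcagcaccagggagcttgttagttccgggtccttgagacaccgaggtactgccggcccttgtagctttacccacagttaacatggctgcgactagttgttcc
Mrps31, chr8:22411220-22411369, plus strand: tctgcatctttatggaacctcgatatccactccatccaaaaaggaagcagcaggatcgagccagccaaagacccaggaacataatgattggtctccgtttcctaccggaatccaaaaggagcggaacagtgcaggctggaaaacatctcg
GTCAC stood in the stretches of Ndufb8, Uqcrfs1 and Atp5g3 and not in those of Ndufaf3, Mrpl18 and Mrps31. The summit lay 13 bp before the start in Ndufb8, 74 bp before it in Uqcrfs1, 89 bp before it in Atp5g3, 87 bp before it in Mrpl18 and 3 bp before it in Mrps31, and 10 bp after it in Ndufaf3.

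Peaks were found at 13 of the 174 genes (7.47%), where the same rule gave 2097 of all 21774 protein-coding genes (9.63%). Each of the 13 genes had 1 peak. The respiratory chain accounted for 7 of 96 genes (7.29%) and the mitochondrial ribosome for 6 of 78 (7.69%), both below the share of all genes. The set consists of short genes, with a median span of 7.44 kb against 17.2 kb for all protein-coding genes, and a long gene has more room for a peak inside it. Among genes of 20 kb or less, 12 of 150 in the set (8%) and 692 of 11767 of all protein-coding genes (5.88%) had a peak. Among longer genes it was 1 of 24 in the set (4.17%) against 1405 of 10007 (14%). The share of the set was thus above that of all genes among short genes and below it among long ones, on counts of 12 genes and 1 gene.

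By class, genes counted as accessory subunits of complex I had peaks at 3 of 34 (Ndufa13, Ndufb8 and Ndufa4l2). Complex I assembly factors had them at 1 of 8, complex III at 1 of 8, complex IV at 1 of 18 and complex V at 1 of 17. Classes were assigned from gene symbols and not from the complex in which the protein is found. Every Nduf gene outside the core subunits and assembly factors counted as accessory, Ndufa4 and Ndufa4l2 among them. The small ribosomal subunit had peaks at 3 of 29 genes and the large one at 3 of 49. The 7 core subunits of complex I, which carry its redox centres, and the 4 subunits of complex II, which is also the succinate dehydrogenase of the tricarboxylic acid cycle, had none. No class held more than 3 genes with a peak, and the bars by class scatter on both sides of the share of all protein-coding genes.

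**Figure D1:**
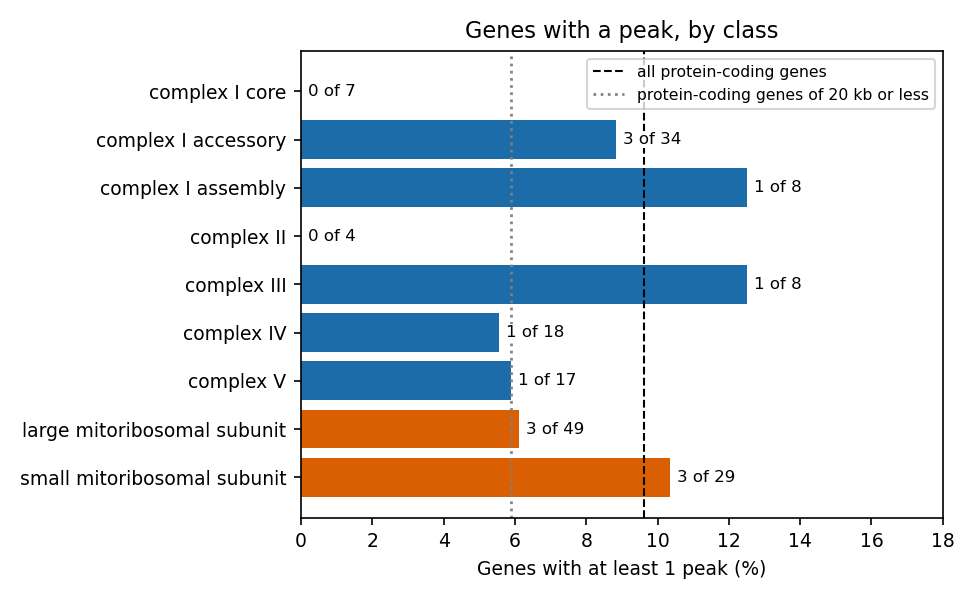
Share of genes with at least 1 peak (percent) in each class of respiratory chain (blue) and mitochondrial ribosome (orange) genes, with the counts beside the bars. The dashed line is the share of all protein-coding genes (9.63%) and the dotted line that of protein-coding genes of 20 kb or less (5.88%); complex I core and complex II stand at 0.

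The strongest peaks of the set belonged to a complex I and a complex V gene. Ndufa13, an accessory subunit of complex I also studied as GRIM-19, lies at chromosome 8, 69894163 to 69902558, and had a peak at 69901475 to 69901860. Its summit had a pileup of 24 ChIP fragments, against a local input background of 0.977 fragments at the ChIP depth, a fold enrichment of 12.6 (8.28 to 18.6). The pileup counts the ChIP fragments that cover the summit, and the fold is the authors' ratio of pileup plus 1 over background plus 1. Atp5g3, 1 of the genes for subunit c of the membrane ring of the ATP synthase, lies at chromosome 2, 73908447 to 73912464. Its peak at 73911295 to 73911550 had 25 ChIP fragments against a background of 1.07, a fold of 12.5 (8.29 to 18.3). These were the only 2 of the 13 peaks at 10-fold or more (15.4%), a share close to the 14.4% of all peaks, and they stood above 95.2% and 95.1% of all peaks by fold.

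A second step down held Cox6c and Ndufaf3. Cox6c, a nuclear-encoded subunit of cytochrome c oxidase (complex IV), had 18 ChIP fragments against 0.977, a fold of 9.61 (5.90 to 14.9), at chromosome 15, 35938162 to 35938370. Ndufaf3, which works in the assembly of complex I and is not part of the finished complex, had 18 ChIP fragments against 1.04, a fold of 9.31 (5.72 to 14.4), at chromosome 9, 108567334 to 108567559. The intervals of all 4 genes overlap, so their order is within counting error.

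The other Nduf peaks and the complex III peak were weaker. Ndufb8, an accessory subunit of the membrane arm of complex I, had 13 ChIP fragments against 1.04, a fold of 6.86 (3.88 to 11.4), at chromosome 19, 44555191 to 44555527. Ndufa4l2, a paralogue of Ndufa4 known as a target of the hypoxia response, had 16 against 1.56, a fold of 6.64 (3.96 to 10.5), at chromosome 10, 127512970 to 127513156. Its peak lay inside the gene, 3786 bp from the nearer end. Uqcrfs1, the Rieske iron-sulfur protein of complex III, was the weakest of the set, with 10 against 0.984 and a fold of 5.55 (2.92 to 9.77) at chromosome 13, 30545090 to 30545405. Its authors' −log10 q-value was 4.32, where the list was called at a q-value limit of 0.01 and its smallest pileup was 9.

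The ribosomal protein genes lay in a narrow band. In the small subunit, Mrps31 had 14 ChIP fragments against 0.977, a fold of 7.59 (4.38 to 12.4), at chromosome 8, 22411216 to 22411441. Mrps15 had 18 against 1.56, a fold of 7.42 (4.56 to 11.5), at chromosome 4, 126046828 to 126047073. Mrps16 had 11 against 0.977, a fold of 6.07 (3.28 to 10.5), at chromosome 14, 20393609 to 20393780. Mrps15 thus had more ChIP fragments than Mrps31 and a like fold, with a higher input background.

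In the large subunit, Mrpl18 had 14 ChIP fragments against 1.04, a fold of 7.35 (4.24 to 12.0), at chromosome 17, 12916070 to 12916262. Mrpl43 had 12 against 0.977, a fold of 6.58 (3.64 to 11.1), at chromosome 19, 45006321 to 45006520. Mrpl48 had 12 against 1.04, a fold of 6.37 (3.53 to 10.8), at chromosome 7, 100590847 to 100591118. All 6 ribosomal peaks had folds below those of Ndufa13, Atp5g3, Cox6c and Ndufaf3, but every one of their intervals overlaps the intervals of these 4.

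**Figure D2:**
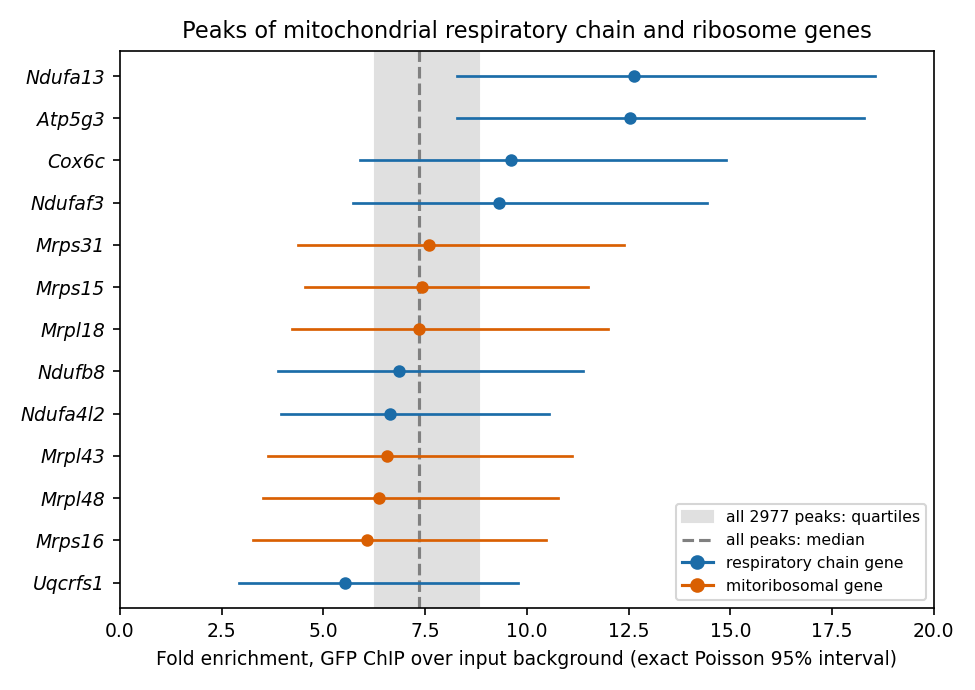
Fold enrichment of GFP ChIP over the input background at the 13 peaks, with exact Poisson 95% intervals as bars, for respiratory chain (blue) and mitoribosomal (orange) genes. The grey band and dashed line are the quartiles and median of all 2977 peaks; 4 respiratory chain genes stand right of the band (9.31 to 12.6), and the 6 ribosomal genes lie between 6.07 and 7.59.

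As a group, the 13 peaks had values near those of the whole list. Their median fold was 7.35 and that of the other 2964 peaks 7.35, and the median pileup was 14 fragments against 15. Their input background ran from 0.977 to 1.56, while the other peaks reached 179, so none of the 13 lay in a region of high input. At 5 of the 13 (38.5%), against 44.1% of the other peaks, the background was at its floor of 0.977, the genome-wide mean that the caller uses when the local input is lower.

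**Figure D3:**
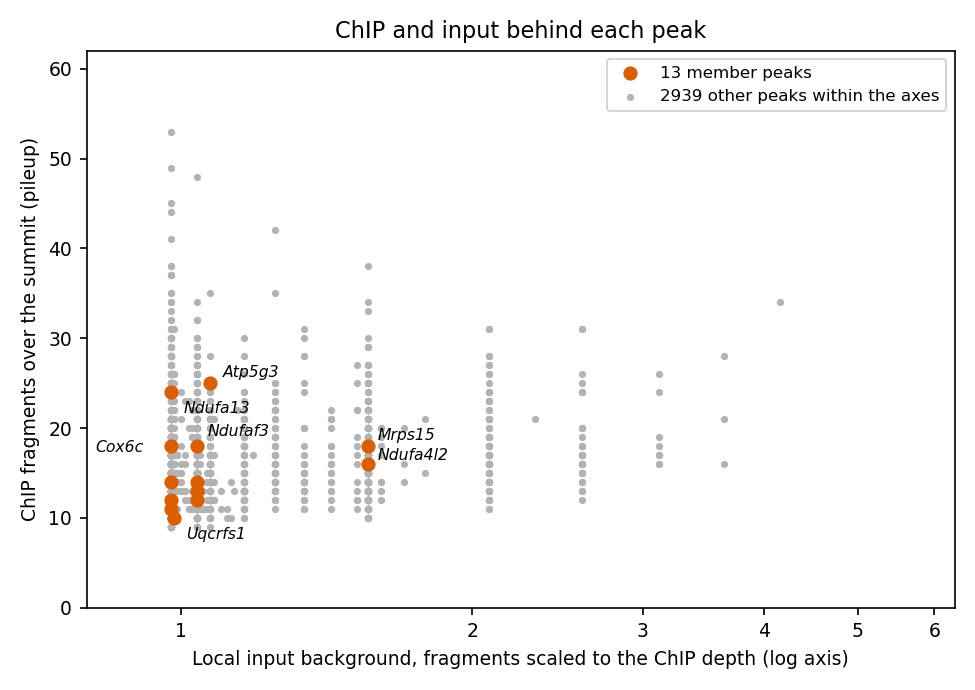
ChIP fragments over the summit (vertical) against the local input background in fragments scaled to the ChIP depth (horizontal, log axis), 1 point per peak, orange for the 13 peaks of the set and grey for other peaks within the axes. The 13 points range from 10 to 25 ChIP fragments and from 0.977 to 1.56 background fragments.

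Most peaks of the set lay at start sites, as did those of the other mitochondrial lists below. By the ends of the gene spans, 9 of the 13 summits (69.2%, Wilson 95% interval 42.4 to 87.3%) lay within 1000 bp of an end, where 912 of 2640 peak and gene pairs of all protein-coding genes did (34.5%) and 429 of 761 pairs of genes of 20 kb or less did (56.4%). In the lists of other mitochondrial genes described below, 18 of the 26 genes with a peak had a summit within 1000 bp of an end. A span runs to the outermost annotated ends of its gene, and in Atp5g3, Mrpl18, Mrps31, Ndufa13 and Mrpl48 the RefSeq start lay inside the span. Of the 13 genes, 11 (without Cox6c and Ndufa4l2) had a start site in the RefSeq promoter table, and the summit lay within 500 bp of it in 11 of 11 and within 100 bp in 9 of 11. For all protein-coding genes these shares were 34.8% and 15.9% of 2104 pairs, and for genes of 20 kb or less 54.1% and 26.9% of 614 pairs. The 2 exceptions to the 100 bp were Ndufa13, 324 bp after the start, and Mrpl48, 455 bp after the nearest of its 4 starts and 17342 bp from an end of the span. Mrps16 at 14 bp before the start, Mrps15 at 28 bp after it and Mrpl43 at 39 bp after it complete the 9 near ones. For the 8 genes with a known strand and a summit within 1000 bp of an end, that end was the start in all 8, and over all genes the start was the nearer end in 738 of 763 such pairs (96.7%).

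**Figure D4:**
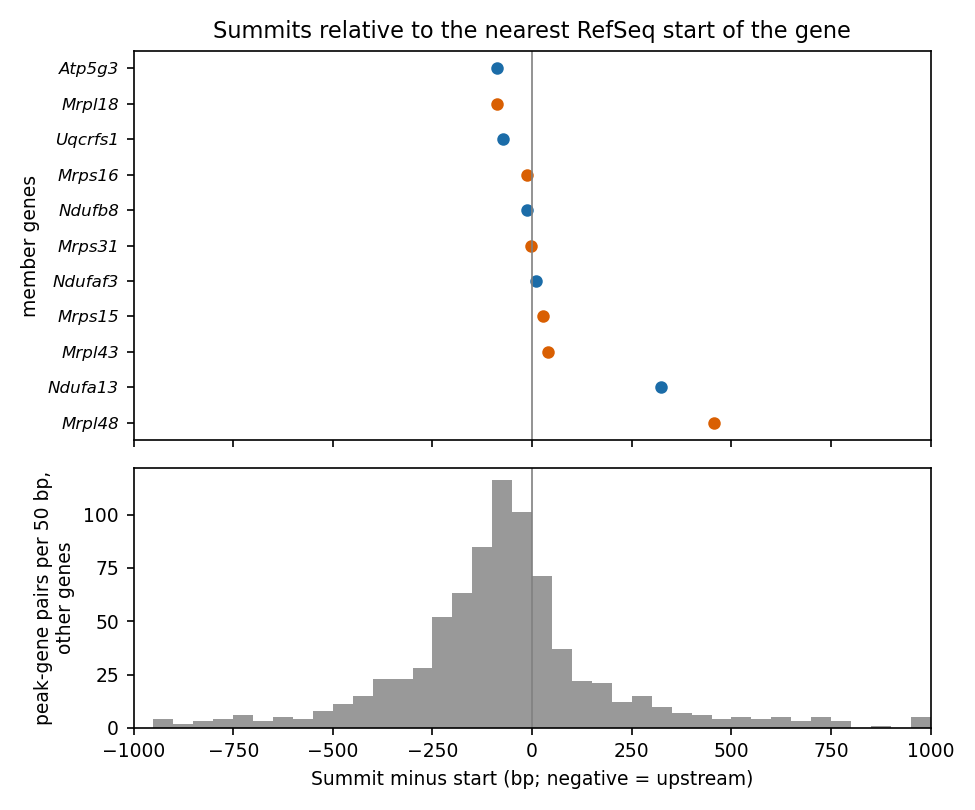
Distance from the nearest RefSeq start of the gene to the summit (bp, negative upstream) for the 11 genes of the set with a start in the table (above; blue respiratory chain, orange mitoribosomal) and, as a histogram in bins of 50 bp, for peak and gene pairs of all other protein-coding genes within 1000 bp (below). Of the 11 summits, 9 lie between 89 bp before and 39 bp after the start.

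Counted by start sites, independently of which gene end was nearest, 13 of 147 genes of the set with an entry in the promoter table (8.84%) had a summit within 1000 bp of a start, against 856 of 17492 protein-coding genes (4.89%). These 13 are not the same as the 13 with an assigned peak: Cox6c and Ndufa4l2, which have no entry, are not among them, and Ndufb1 and Mrpl40, whose summits were nearer to another gene, are. In genes of 20 kb or less the counts were 12 of 130 (9.23%) and 390 of 9545 (4.09%). By either end of the span, 12 of 174 genes (6.9%) had a summit within 1000 bp, against 1001 of 21774 (4.6%), and 12 of 150 short genes (8%) had one, against 483 of 11767 (4.1%). Within 10 kb of either end it was 18 of 174 (10.3%) against 1896 of 21774 (8.71%). These shares are counts of genes in 1 ChIP library and were not tested. The counts by start site and within 10 kb were chosen after the values were seen.

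Several of the peaks stood close to a neighbouring gene as well, and which gene such a peak belongs to cannot be told apart here. The Mrpl18 summit fell between the starts of Mrpl18 and Tcp1, a subunit of the cytosolic chaperonin, which lie 238 bp apart. The Mrpl43 start lies 116 bp from that of Twnk, the helicase of mitochondrial DNA, and the same peak belonged to both genes. Ndufa13 starts 164 bp from Tssk6, a testis kinase gene, whose nearer end was 488 bp from the summit. The Ndufaf3 summit lay 58 bp from an end of Dalrd3, and the Mrps16 summit 542 bp from an end of Cfap70. Of the 13 genes with a summit within 1000 bp of a start, 6 (46.2%) had an opposite-strand start within 1000 bp upstream (overlaps of up to 100 bp counted), against 47 of the 134 other genes of the set (35.1%). Over all protein-coding genes it was 27.7% of those with such a summit and 13.2% of those without. Any start of a gene counted here, not only the one near the summit. Mrpl48 is among the 6 through Rab6a at another of its 4 starts, and the nearer Rab6a end lay 16616 bp from the Mrpl48 summit.

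Nearer ends of neighbouring genes kept a few genes of the set out of the assignment. Ndufb1, an accessory subunit of complex I, had a summit 73 bp before its start with 11 ChIP fragments against 1.03, a fold of 5.92 (3.20 to 10.2), but an end of Cpsf2 was nearer at 52 bp. Mrpl40 had a summit 498 bp before its start with 14 against 0.977, a fold of 7.59 (4.38 to 12.4), and an end of Hira was nearer at 385 bp. At Ndufb6 a stronger peak of 25 against 0.977, a fold of 13.2 (8.69 to 19.2), lay 829 bp from the gene's far end and 79 bp from an end of Topors, and its distance from the Ndufb6 start was 9659 bp. Of the 161 genes without an assigned peak, 26 had a summit within 50 kb of an end that stood nearer to another gene, and 135 had none within 50 kb. The median distance from these 161 genes to the nearest summit was 187 kb.

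Promoters of genes with a summit near the start were rich in G and C, in the set and over all protein-coding genes. The 300-base windows (250 bases before to 50 after the start) of the 13 genes with a summit within 1000 bp of a start, which include Ndufb1 and Mrpl40, had a median GC content of 62.3%, against 58.0% in the 134 other genes of the set. For all protein-coding genes with such a summit the median was 62.7%, and over all 17492 it was 56.3%. The summit itself need not lie in the window. It lay outside in Mrpl40 (498 bp before the start), Mrpl48 (455 bp after it) and Ndufa13 (324 bp after it). The ratio of observed to expected CpG was above 0.6 in 12 of the 13 windows (92.3%) and in 85.8% of the 134. It was above 0.6 in 87.6% of the windows of all genes with such a summit and in 48.4% of all windows. The part of GC content in where peaks were called was not tested.

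GTCAC, searched on both strands, stood in 10 of the 13 windows (76.9%) and in 51.5% of the 134 other genes of the set. It stood in 53.3% of the windows of all 856 genes with a summit within 1000 bp of a start and in 45.8% of all windows. GTCAC is a short motif that is common in promoters by these shares, and 13 windows are few. The dimer motif of paired homeodomains, TAATC and ATTA with 2 bases between them, was in 0 of the 13 windows and in 0.0972% of all windows. A homeodomain dimer motif of another spacing, TAAT and ATTA with 2 bases between them, was also in 0 of the 13, and in 0.343% of all.

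Motifs known from mitochondrial gene promoters were present in the set, and their shares are given without a test. The NRF1 motif, GCGC and TGCGC with 1 base between them, was in 1 of the 13 windows (7.69%, Atp5g3) and in 22.4% of the other genes of the set. It was in 9.58% of the windows of all genes with a summit within 1000 bp of a start and in 6.61% of all windows. The ETS motif CCGGAAG was in 2 of 13 (15.4%, Mrpl18 and Mrpl43), with shares of 29.9%, 17.4% and 11.9% in the same order. The YY1 motif AAGATGGC was in 1 of 13 (7.69%, Ndufb8), with 15.7%, 4.44% and 3.22%. The motif of estrogen-related receptors, AAGGTCA, was in 2 of 13 (15.4%, Atp5g3 and Mrps15), with 7.46%, 2.45% and 4.06%. Both strands were searched, and these matches are letters in the window, not bound sites. Other motifs searched were the GC box GGGCGG (9 of 13, 73.0% of the windows of all genes with such a summit and 46.4% of all windows), CCAAT (7 of 13, 43.1% and 39.0%), the E-box CANNTG (10 of 13, 58.6% and 68.8%), the AP-1 motif TGANTCA (1 of 13, Ndufa13, 5.02% and 7.10%) and the CRE motif TGACGTCA (1 of 13, Uqcrfs1, 3.62% and 2.35%). In the 134 other genes of the set these 5 motifs had shares of 44.8%, 40.3%, 67.2%, 6.72% and 3.73% in the same order. A CRE match contains GTCA, so in Uqcrfs1 it overlaps the marked GTCAC. In Atp5g3 an AAGGTCA match on the other strand overlaps a marked GTCAC. In Ndufa13, whose sequence is not shown, a TGANTCA match overlaps a GTCAC, so these matches are not separate from GTCAC.

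Genes that work with the respiratory chain and ribosome had peaks at 26 of 157 (16.6%) in 7 lists by role, against the 9.63% of all protein-coding genes. The lists were chosen with earlier results of these data known, were not matched for gene length and were not tested. Electron carriers had 5 of 14 genes with a peak, 4 of them for making coenzyme Q, which carries electrons to complex III. Coq6, a hydroxylase of the ring, had 20 ChIP fragments against 0.977, a fold of 10.6 (6.69 to 16.1). Pdss2 and Pdss1, the subunits of the enzyme that makes the isoprenoid tail, reached 9.10-fold (5.51 to 14.3) and 7.84-fold (4.61 to 12.6), and Coq7, a later hydroxylase of the pathway, reached 7.35-fold (4.24 to 12.0). In these 4 genes the summit lay between 178 bp before and 286 bp after a RefSeq start. An end of Fam161b was 70 bp from the Coq6 summit.

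Maintenance and transcription of mitochondrial DNA had 4 of 18 genes with a peak. Mterf3, a mitochondrial transcription regulator, had the highest fold of all the lists, 16.2 (11.2 to 22.6), with 32 ChIP fragments against 1.04, and an end of Ptdss1 lay 210 bp from its summit. Polg, the mitochondrial DNA polymerase, reached 9.16-fold (5.63 to 14.2) and had 2 peaks. Mterf2 reached 7.84-fold (4.61 to 12.6), and Twnk held the peak shared with Mrpl43.

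The tricarboxylic acid cycle had 4 of 19 genes, each with its summit within 1000 bp of a start. They were Suclg1 (succinyl-CoA ligase) at 8.82-fold (5.35 to 13.8), Fh1 (fumarate hydratase) at 7.08-fold (4.01 to 11.8), Cs (citrate synthase) at 6.41-fold (3.70 to 10.5) and Ogdh (oxoglutarate dehydrogenase) at 5.88-fold (3.18 to 10.1). Protein import had 5 of 29 genes, led by Timm10 at 12.6-fold (8.28 to 18.6), Tomm20 at 9.61-fold (5.90 to 14.9), Pmpcb at 7.59-fold (4.38 to 12.4) and Timm22 at 7.35-fold (4.24 to 12.0). Timm10 is a chaperone of the intermembrane space, Tomm20 a receptor of the outer membrane, Timm22 the carrier translocase of the inner membrane and Pmpcb a subunit of the peptidase that removes import signals. The summits of Timm10, Tomm20 and Timm22 lay 29, 101 and 52 bp from an end of the gene, and that of Pmpcb 3724 bp. An end of Smtnl1 was 145 bp from the Timm10 summit.

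Assembly factors outside the Nduf family had 3 of 37 genes, which were Bcs1l, a chaperone that inserts the Rieske protein into complex III, at 10.3-fold (6.48 to 15.6), Foxred1 of complex I assembly at 8.60-fold (5.13 to 13.6) and Cox14 of complex IV assembly at 7.59-fold (4.38 to 12.4). These peaks also stood near other genes, with an end of Zfp142 at 89 bp from the Bcs1l summit, of Srpr at 196 bp from that of Foxred1 and of Gpd1 at 563 bp from that of Cox14. Translation factors had 2 of 22, the initiation factor gene Mtif3 at 10.8-fold (6.86 to 16.2), 12975 bp outside the gene, and the elongation factor gene Tufm at 7.59-fold (4.38 to 12.4). Nuclear regulators of mitochondrial genes had 3 of 18. Of the 16 with an entry in the promoter table, 0 had a summit within 1000 bp of a start. The share over all protein-coding genes with an entry was 4.89%, so 16 genes are too few to tell the list from all genes. Yy1 reached 9.10-fold (5.51 to 14.3), 1275 bp after a start. The coactivator genes Ppargc1b and Ppargc1a had peaks inside the gene of 7.08-fold (4.01 to 11.8) at 44672 bp and 6.37-fold (3.53 to 10.8) at 98143 bp from the nearer end.

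**Figure D5:**
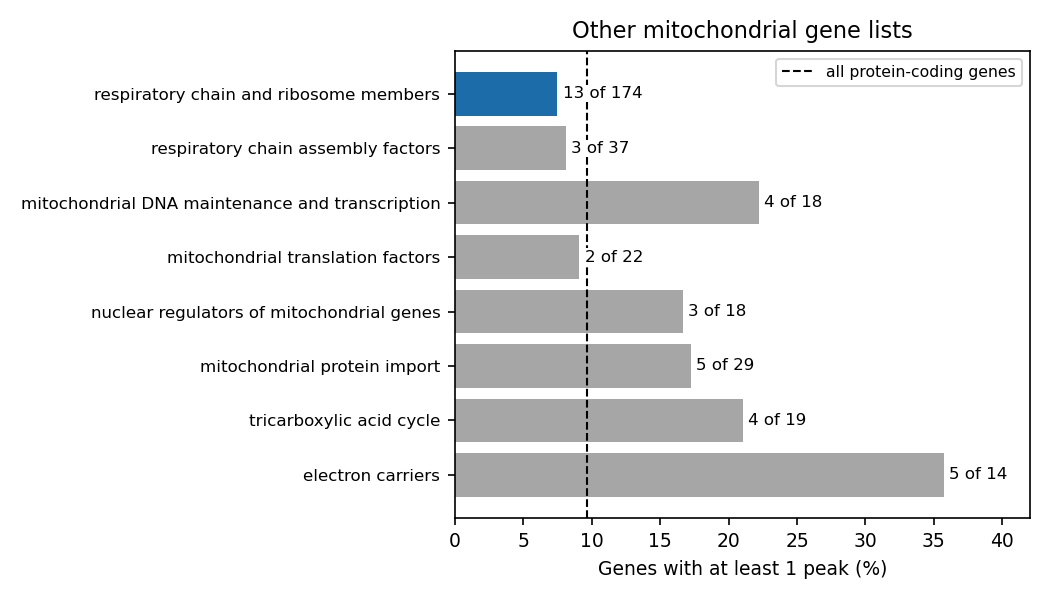
Share of genes with at least 1 peak (percent) in the respiratory chain and ribosome set (blue) and in 7 lists of other mitochondrial genes (grey), with counts beside the bars and the share of all protein-coding genes as a dashed line (9.63%). Electron carriers stand highest (5 of 14), and the respiratory chain and ribosome set stands lowest (13 of 174).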

How the data were processed

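The authors sequenced single-end 50 bp tags from 1 GFP ChIP and 1 input DNA library. GRCm38, bcl2fastq 2.16, HISAT2 and MACS2 2.1.1 are named per the submitters' processing notes, without role or order. Per the file headers, MACS 2.1.1.20160309 called narrow peaks with a q-value cutoff of 0.01, an effective genome size of 1.87e+09, a fragment length of 172 bp, at most 1 tag per position and the input scaled to the ChIP depth (factor 0.5199). The deposited pileup is a coverage signal of unscaled ChIP fragments, the deposited fold is a ratio to the local background, and the deposited −log10 p-values and q-values come from the caller.

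The local background was recovered from the deposited fold and pileup (Python 3.11.15, pandas 2.3.3, scipy 1.17.1). Genes came from RefSeq's GRCm38.p6 gene table without 126 protein-coding entries on scaffolds and patches. Start sites and sequences came from RefSeq's promoter table of the same build (147 of the 174 genes had an entry, and the others are not analysed here for sequence). For genes with several starts, the start nearest to a summit was used, or the first listed where none lay within 1000 bp. Assignment was tested on simulated summits at or just outside the nearest gene end and inside no other gene. That test did not cover summits within the body of a gene or loci where genes overlap. The genes, lists and motifs were chosen with earlier results of these data known. No test was made between libraries or over genes. All genes of the set with a peak are named, and up to 4 per list by fold, with the neighbour whose end lay within 1000 bp. Ndufb1, Mrpl40, Ndufb6 and the promoters printed were chosen after their values were seen. Alternatives were a stricter q-value, other distances, overlap in place of the summit, end windows of 500 and 2500 bp, leaving out the highest pileups or backgrounds, and a fold with nothing added; the counts within 10 kb of an own end and by RefSeq start were added after seeing the data.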

Additional observations from a re-analysis of the deposited data

How the results depend on the processing

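The count of 13 genes with a peak ranged from 9 (summit inside the gene) to 18 (any summit within 10 kb of an own end, added after seeing the data), except that it fell to 6 when peaks below the median −log10 q-value were left out, where 5.23% of all protein-coding genes had a peak. The 6 were Atp5g3, Cox6c, Mrps15, Mrps31, Ndufa13 and Ndufaf3. The share of all protein-coding genes was 5.49% with the summit inside the gene and 8.71% within 10 kb of an own end. By the nearest end alone it was 8.43%, with 10 of the 174 genes of the set. Of the 157 genes of the other mitochondrial lists, 16 had a peak under the stricter q-value in place of 26. The share of summits at an end was 53.8% with a window of 500 bp and 100% by RefSeq start within 1000 bp (added after seeing the data, 11 genes with an entry). The median fold was 12.5 with nothing added to pileup and background, because the added 1 lowers ratios over backgrounds near 1. Of the 14 counts of single lists under these alternatives, 9 stayed within 1.5 times the main value and 5 moved further, 4 of these with the stricter q-value. The fold of a single gene is that of its 1 peak and cannot move with the assignment; a gene can only lose the peak, as 7 of the 13 did with the stricter q-value, 3 with the nearest end alone and 4 with the span alone. No paired analysis was possible because each group has 1 library. A typical peak rested on 14 ChIP fragments, so folds that differ by less than their intervals are not distinguishable, and genes without a peak may carry enrichment below the detection of this depth.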
